A study of Mus musculus with 108 samples.

Results

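The comparison covers the cerebral cortex (CX) of E17.5 (late embryonic) mouse embryos, 6 wild type (WT) and 6 heterozygous Cul3 mutant (Cul3+/-, also HET), chosen by the age, region and genotype in the sample titles: 12 of the 108 libraries of the series. The full series holds 3 ages and 3 brain regions from both genotypes and was made to ask which genes respond to a loss of 1 Cul3 copy during brain development. The strain is labelled C56Bl/6N (C57BL/6N in the methods of the study), and no agent was given to either group. The mutation is a germline 1 base pair insertion in exon 6 made with CRISPR/Cas9, carried by 1 founder and bred to WT for several generations, so that all mutants descend from a single edited allele. RNA was total RNA depleted of ribosomal RNA and sequenced in pairs with strand information, which keeps transcripts without a poly(A) tail, such as most histone mRNAs, as well as unspliced RNA. Levels are given in CPM, the counts of a gene scaled to the normalized library total, which compare libraries and not genes, and 16594 genes passed the filter on low counts.

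Cul3 is the scaffold of a family of E3 ubiquitin ligases: its N-terminal part binds BTB-domain adaptors that choose the substrate, and its C-terminal part binds Rbx1, which recruits the ubiquitin-loaded E2 enzyme. In the late embryonic cortex most neurons are already postmitotic, while radial glia in the ventricular zone and Eomes-positive intermediate progenitors in the subventricular zone still divide. Cells in S phase make the replication-dependent histones from intronless mRNAs that end in a conserved stem-loop instead of a poly(A) tail. Genes for mitosis are transcribed later in the cycle, in G2 and M.

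The edited site is shown first because it defines the mutants. It was found by matching the designed target of the study to the Cul3 transcript Cul3-201. It lies in coding sequence at chr1:80287041-80287063 of GRCm38, on the minus strand, in exon 6 of 16 and over codons 240 to 247 of 768. The 20 bases in lower case match the guide and the capitals mark the PAM.
Cul3 target: ggattaatgaggaaatagagCGG

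In the fit with the replicate number of the titles as a block, described below, 21 of the 55 called genes were replication-dependent histone genes. In the fit without it, no histone gene reached an unadjusted p of 0.05. The stem-loop was searched for over the whole length of the annotated transcripts, and its distance from the 3′ end was not measured. A search for the histone stem-loop motif on the sense strand found it in 42 of the 63 tested replication-dependent histone genes (66.7%) and in 6 of 16497 other tested genes with a transcript sequence (0.0364%). The stem-loops of 3 histone genes described below are printed with the motif in capitals, from GENCODE M21 transcripts, and its most frequent form, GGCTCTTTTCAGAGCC, was in 25 genes. The 3 examples keep the ends of the motif and differ inside it. No match was found for Hist1h1b, also described below, which says only that these letters are not in its annotated transcripts.
Hist1h2bk: caccaaaGGCTCTTTTAAGAGCCactaaac
Hist1h4f: tctcaaaGGCCCTTTTCAGGGCCacccact
Hist1h2bh: acccaaaGGCTCTTTTCAGAGCCactcaag

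Cul3 itself, at chr1:80264923-80340480 on the minus strand of GRCm38, was lower in every mutant library than in every WT library. Its level was 192 CPM in the lowest, 198 in the median and 205 in the highest WT library, and 110, 115 and 118 CPM in the mutants. The groups did not overlap, and the mutant mean was 57.7% of the WT mean, between 53.7% and 61.0% within pairs of the same number. On the log2 scale the difference was -0.79 (SE 0.038, adjusted p = 4.78e-07, edgeR quasi-likelihood test), and blocking on the replicate number left it at -0.79 (SE 0.037, adjusted p = 5.72e-05). An exact two-sided permutation test of genotype gave p = 0.00216, and the exact paired test over 64 sign flips gave p = 0.0313, the smallest it can give. No other gene ranked above it in either fit.

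**Figure D1:**
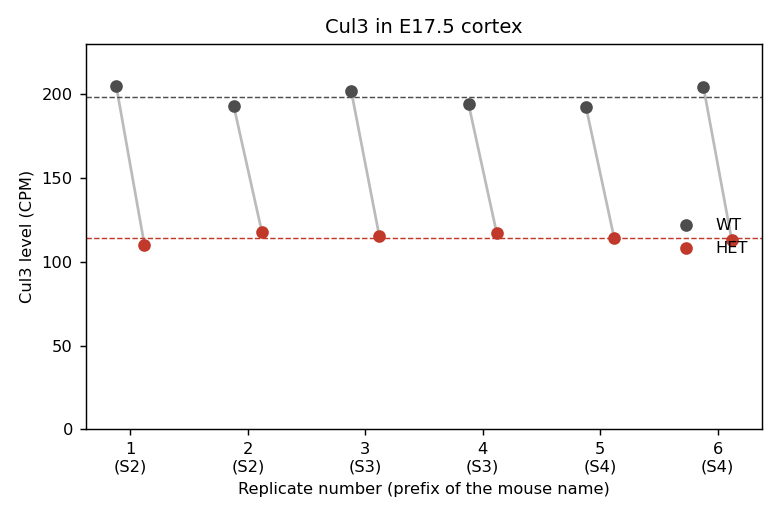
Cul3 level in CPM (y axis) in the 6 WT and 6 mutant (HET) cortices at E17.5, by replicate number (x axis, with the prefix of the mouse name). Points are libraries, grey lines join the same number and dashed lines are group means; all 6 mutant libraries sit between 110 and 118 CPM, below the lowest WT library at 192 CPM.

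Library totals ran from 25782800 to 34893100 counts with a median of 29412600, and at most 1.4% of the counts were mitochondrial. The labelled tissue held against marker genes: the dorsal forebrain gene Emx1 was at 22.1 CPM or more and the cortical neuron gene Neurod6 at 548 CPM or more in every library, while the cerebellar genes Atoh1 and Barhl1 were at most 0.0336 and 0.0363 CPM. The labels give no sex. The Y-linked gene Ddx3y was read in 2 WT and 3 mutant libraries, and 3 of the 6 same-number pairs mixed a library with Ddx3y and one without. No 2 libraries of a group agreed within counting noise.

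Mouse names in the titles begin with S2, S3 or S4, whose meaning is not given, and each holds 2 WT and 2 mutant libraries. The level of dividing-cell genes differed more between these prefixes than between genotypes. Summed over 38 mitosis genes, the level was 1964 to 2369 CPM in the 4 S3 libraries, 1114 to 1276 CPM in S2 and 815 to 997 CPM in S4. All 38 were higher in every S3 than in every S4 library, against 18.9% of all tested genes. WT and mutant embryos of the same number shared a prefix in 6 of 6 pairs and had mouse numbers that differ by 1. Their deviations from the group means correlated at 0.11 to 0.76 in all 6 pairs (median 0.47), against a median of 0.38 for other numbers of the same prefix and -0.21 for other prefixes. Of the 12 libraries, 8 correlated best with the library of their own number. Grouping by prefix alone leaves 2 candidates for each library, so it would also give many such matches. WT library 1 correlated best with mutant library 6, of another prefix (0.34, against 0.11 with its own number). The numbers were taken to pair the embryos by the rule that every same-number correlation exceed 0.1. Because each same-number pair also shares a prefix, this rule cannot tell pairing by number from grouping by prefix. The lists are given with the replicate number as a block and, for the main ones, also without it. Bulk tissue cannot tell more dividing cells from more RNA per dividing cell.

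**Figure D2:**
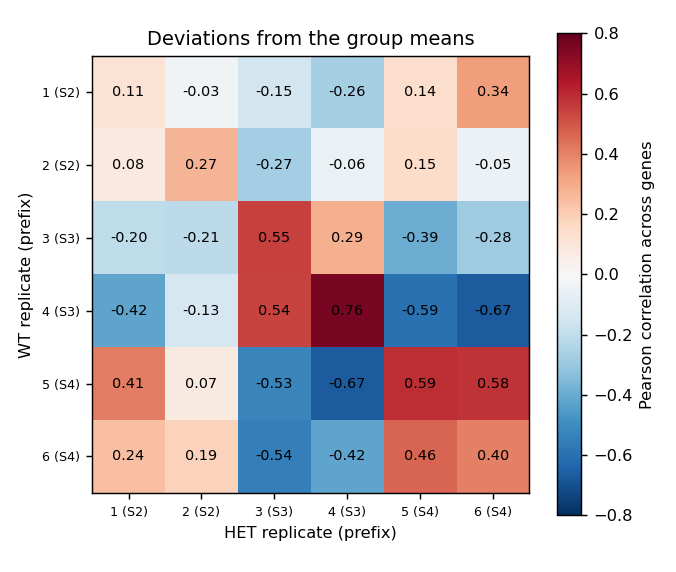
Pearson correlation, across the 16594 tested genes, of each WT library's deviation from the WT mean (rows) with each mutant library's deviation from the mutant mean (columns), by replicate number and prefix. Red is positive and blue negative; the same-number diagonal runs from 0.11 to 0.76, and most values between prefixes are negative.

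Without the block, Cul3 was the only gene called at an adjusted p under 0.1 (1 of 16594, 0.00603%), and 277 genes (1.67%) had an unadjusted p under 0.05, of which 97 were higher (0.585%) and 180 lower (1.08%) in mutants. With the replicate block 55 genes were called (0.331%): 47 rose (0.283%) and 8 fell, Cul3 included (0.0482%). At an unadjusted p under 0.05 there were 1094 higher (6.59%) and 1310 lower genes (7.89%), 14.5% together. The 47 genes that rose were each above their WT partner in 6 of 6 pairs, as were 763 of all tested genes (4.6%), and the 8 that fell were below it in 6 of 6, as were 570 (3.43%). The fit that chose these genes used the same pairs, so this agreement largely follows from the choice and is no separate support. The values of WT and mutant libraries overlapped for 54 of the 55.

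The count of calls moved with single pairs. Without pair 2, 3, 4 or 5 it was 2, 8, 1 and 3, without pair 1 it was 66, and without pair 6 it was 434. In each of these fits all 55 genes kept their direction with an unadjusted p under 0.05. With the prefix as a block in place of the number, 1 gene was called and again all 55 kept direction and an unadjusted p under 0.05. In that fit 33 histone and 33 mitosis genes were higher and 8 synapse genes lower at that p, against 55, 35 and 14 with the number. Over all tested genes 1193 passed that p, against 2404. The leave-out fits share most libraries with the one that chose the genes, and the prefix fit shares all of them. The agreement of the 55 therefore largely follows from the choice and is no separate support. DESeq2 with the block called 287 genes, 53 of the 55 among them, and an offset for gene length, GC content and span left 42 calls, 28 of them shared.

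Genes for the cell cycle made up most of the calls. Of the 55, 21 were replication-dependent histones, 9 were in the mitosis list and 2 in the DNA replication list, and 50 of the 55 code for protein. In the plot of summed levels, the mutant lies above its WT partner in all 6 pairs for the histones, mitosis, DNA replication and intermediate progenitor lists. Such agreement was not limited to these lists. The synapse sum was lower in all 6 pairs (log2 ratios -0.40 to -0.060), as was the neuronal cytoskeleton sum (-0.13 to -0.0077). By mean log2 CPM, the ribosomal protein, thalamic and activity-regulated lists were higher in all 6 pairs, and the interferon and antigen presentation list was lower in all 6. The measure matters for 2 of these lists: by mean log2 CPM the synapse list was higher in 1 pair. By sum the ribosomal protein list was higher in 5 of 6.

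**Figure D3:**
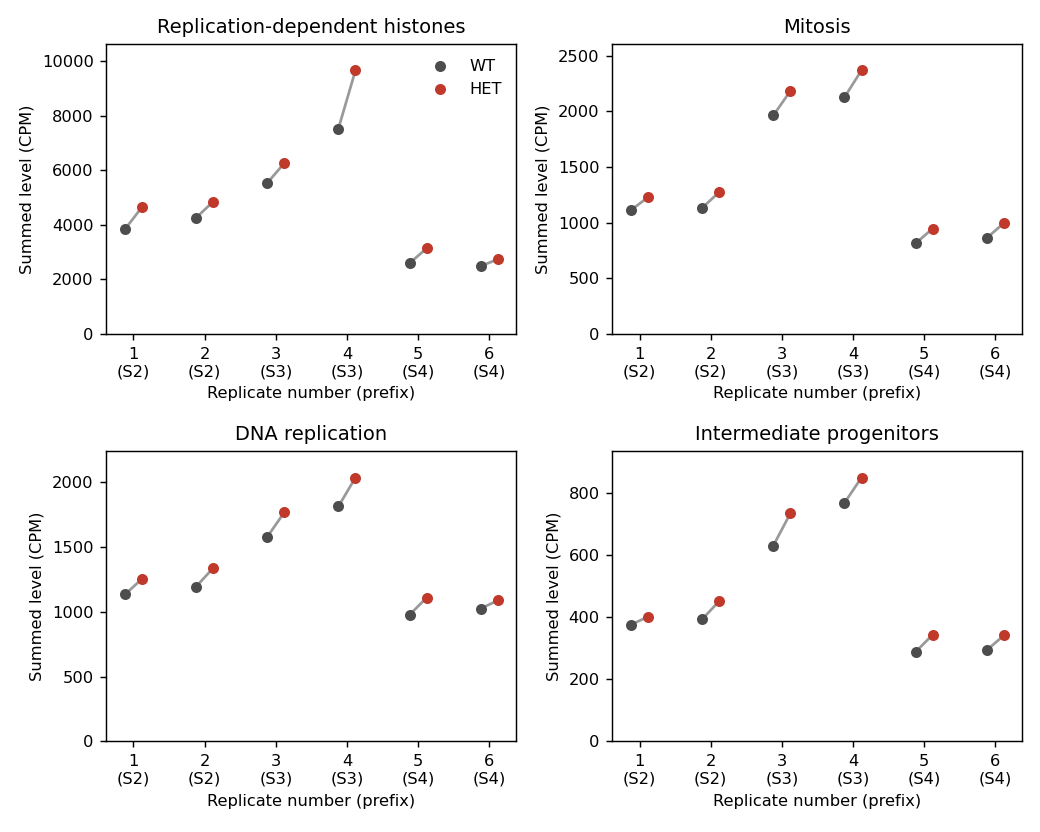
Summed level in CPM (y axes, from 0) of 63 replication-dependent histone, 38 mitosis, 44 DNA replication and 14 intermediate progenitor genes in each E17.5 cortex library, by replicate number and prefix (x axes). Grey points are WT and red points mutant (HET), and lines join the same number; the step from S4 to S3 is larger than the step within any pair.

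Histone mRNA was higher in mutants in every pair. The sum over the 63 tested genes was 2490 CPM in the lowest, 4051 in the median and 7528 in the highest WT library, and 2738, 4753 and 9660 CPM in the mutants. The groups overlapped widely, with both S3 pairs at the top and both S4 pairs at the bottom. Within pairs the log2 ratio of the sums was 0.14 to 0.36 (median 0.23). With the block 55 of the 63 had an unadjusted p under 0.05 and a higher level, none was lower at that p, and 21 were called, where 6.59% of all genes were higher at that p and 0.283% were called higher. Their median log2 fold change was 0.25, against 0.00035 over all tested genes. Without the block the median was 0.27 and no histone gene reached an unadjusted p of 0.05. Over the alternatives tried for the unblocked fit, this median ran from -0.0089 to 0.51. Many histone genes are near-identical copies whose reads are split between them by the counting, so a single gene's value is less certain than the class sums.

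All 5 classes of histone gene were higher in mutants. H2B, which with H2A forms the dimers that flank the H3-H4 core, held 13 of the 21 called genes among 17 tested, with a median log2 fold change of 0.30 and 14 genes higher in 6 of 6 pairs. The summed H2B level was 557 to 1613 CPM in WT and 637 to 2015 CPM in mutants, a log2 ratio of 0.19 to 0.35 within pairs. H1, the linker histone, had 5 tested genes, all higher at an unadjusted p under 0.05, of which 3 were called. H4 had 3 calls of 13 tested, and H2A and H3, with 17 and 11 tested, had 1 each. The pair ratios of the summed levels were 0.15 to 0.37 for H1, 0.029 to 0.38 for H2A, 0.047 to 0.42 for H3 and 0.083 to 0.34 for H4, so every class sum was higher in 6 of 6 pairs. Of the called histone genes 20 of the 51 tested lie in the Hist1 cluster at chr13:21715763-23764406, and 1 of the 9 tested in Hist2 at chr3:96219865-96270132. The Hist3 and Hist4 loci, with 2 and 1 tested genes, held no call.

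Over the 63 histone genes the log2 fold changes with the block ran from -0.076 to 1.39, and those with the smallest p are given here. Hist1h2bk, an H2B gene, was at 42.0, 64.2 and 152 CPM (lowest, median, highest) in WT and at 52.3, 86.1 and 195 CPM in mutants. With the block it rose by 0.35 on the log2 scale (SE 0.036, adjusted p = 0.032), with pair differences of 0.27 to 0.44. Hist1h1b, a linker histone, was at 38.2, 65.7 and 153 CPM in WT and 52.4, 85.2 and 194 CPM in mutants, and rose by 0.36 (SE 0.039, adjusted p = 0.0346). Both groups of Hist1h1b spanned the prefixes, with a mean of 147 CPM in S3 and 47.1 CPM in S4. Hist1h4f was at 46.6 to 137 CPM in WT and 55.8 to 186 CPM in mutants and rose by 0.34 (SE 0.040, adjusted p = 0.0479). Hist1h2bh was at 23.7 to 91.5 CPM in WT and 27.8 to 112 CPM in mutants and rose by 0.37 (SE 0.045, adjusted p = 0.0479). Without the block the SE of these 4 genes was 0.33 to 0.40 and the adjusted p 0.991. H1f0, a linker histone that is made outside S phase and is not in the list, also rose, by 0.23 (SE 0.042, adjusted p = 0.0918).

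Promoters of the H2B genes are shown because H2B held most histone calls. RefSeq promoter sequence of 300 bases (GRCm38.p6, 250 bases before to 50 after the start) matched 15 of the 17 tested H2B genes and 11434 of all tested genes. The octamer form ATTTGNAT, searched on both strands, was in 12 of 15 H2B promoters (80%) and in 3.38% of all, and the exact octamer ATTTGCAT in 6 of 15 (40%) against 1.67%. CCAAT was in 15 of 15, and in 43.1% of all. Among the other tested histone genes with a promoter, ATTTGNAT was in 11 of 43 (25.6%), ATTTGCAT in 6 (14%) and CCAAT in 34 (79.1%). The octamer is printed in capitals for Hist1h2bk (chr13:22035571-22035870, plus strand) and Hist1h2bj (chr13:22042948-22043247, plus strand), an H2B gene that rose by 0.30 (SE 0.039, adjusted p = 0.0479). These are matches of letters, not sites of binding.
Hist1h2bk promoter: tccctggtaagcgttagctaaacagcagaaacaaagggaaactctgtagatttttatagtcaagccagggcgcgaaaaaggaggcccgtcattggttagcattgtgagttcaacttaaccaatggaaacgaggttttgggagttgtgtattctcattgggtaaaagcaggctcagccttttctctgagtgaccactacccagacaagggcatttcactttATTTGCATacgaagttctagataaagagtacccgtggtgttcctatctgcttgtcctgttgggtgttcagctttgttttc
Hist1h2bj promoter: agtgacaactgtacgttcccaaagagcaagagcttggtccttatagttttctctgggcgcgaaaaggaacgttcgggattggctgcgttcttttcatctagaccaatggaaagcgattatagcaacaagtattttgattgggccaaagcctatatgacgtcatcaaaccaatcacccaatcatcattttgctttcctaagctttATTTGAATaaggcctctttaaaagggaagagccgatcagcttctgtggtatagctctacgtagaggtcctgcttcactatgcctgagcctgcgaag

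Mitosis genes were higher in mutants, with log2 fold changes from 0.0041 to 0.36 with the block. All 38 had a positive log2 fold change with the block, 35 at an unadjusted p under 0.05, and 9 were called, with a median of 0.21, where 6.59% of all genes were higher at that p and 0.283% were called higher. Of the 38, 30 were higher in 6 of 6 pairs. Summed over the list the level was 815 to 2127 CPM in WT and 948 to 2369 CPM in mutants, and the log2 ratio within pairs was 0.14 to 0.22, a narrow range beside the more than 2-fold spread between prefixes. Without the block the median was 0.22 and none of the 38 had an unadjusted p under 0.05.

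Cdc20, the activator of the anaphase-promoting complex, was at 13.8, 21.8 and 51.0 CPM in WT and 17.6, 27.01 and 59.4 CPM in mutants and rose by 0.27 (SE 0.041, adjusted p = 0.0687). Nusap1, a spindle microtubule protein, was at 17.6, 25.3 and 47.5 CPM in WT and 20.7, 30.3 and 61.5 CPM in mutants and rose by 0.28 (SE 0.039, adjusted p = 0.0613). Each mutant lay above its partner by 0.19 to 0.37 for Cdc20 and by 0.20 to 0.37 for Nusap1. Nuf2, a kinetochore subunit that holds microtubule ends, rose by 0.30 (SE 0.045, adjusted p = 0.0694). Aurkb, the kinase of the chromosomal passenger complex, rose by 0.31 (SE 0.050, adjusted p = 0.083). Ccnb1 and Ccna2, cyclins of the G2 and M phases, rose by 0.27 and 0.24 (both adjusted p = 0.0912). The other 3 called list members were the checkpoint kinase Bub1b (0.25, adjusted p = 0.0867), the midzone protein Prc1 (0.21, adjusted p = 0.0879) and the spindle assembly factor Tpx2 (0.19, adjusted p = 0.0959).

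Several called genes outside the list also act in division. Cdca3, which promotes entry into mitosis, was at 11.7, 15.8 and 33.9 CPM in WT and 14.2, 20.7 and 41.9 CPM in mutants and rose by 0.35 (SE 0.046, adjusted p = 0.0479). Kif15, a spindle kinesin, rose by 0.25 (adjusted p = 0.083), Racgap1, a GTPase-activating protein of the central spindle, by 0.21 (adjusted p = 0.0912) and the mitotic regulator Pimreg by 0.29 (adjusted p = 0.0912). Promoters of mitosis genes often hold the letters TTTGAA, the cell cycle genes homology region, next to CCAAT boxes. TTTGAA was in 24 of the 32 mitosis genes with a promoter sequence (75%) and in 14.3% of all, and CCAAT in 25 of 32 (78.1%) against 43.1%. TTTGAA was also in 12 of 15 H2B promoters, where it can lie inside the octamer form ATTTGAAT, as in Hist1h2bj. Both motifs are in capitals, on either strand, for Cdc20 (chr4:118437294-118437593, minus strand) and Cdca3 (chr6:124829926-124830225, plus strand).
Cdc20 promoter: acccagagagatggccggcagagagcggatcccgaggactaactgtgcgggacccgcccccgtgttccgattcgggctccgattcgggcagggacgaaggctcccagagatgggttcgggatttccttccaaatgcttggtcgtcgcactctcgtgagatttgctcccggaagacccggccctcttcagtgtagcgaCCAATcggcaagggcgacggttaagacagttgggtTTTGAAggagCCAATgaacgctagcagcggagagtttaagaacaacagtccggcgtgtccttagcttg
Cdca3 promoter: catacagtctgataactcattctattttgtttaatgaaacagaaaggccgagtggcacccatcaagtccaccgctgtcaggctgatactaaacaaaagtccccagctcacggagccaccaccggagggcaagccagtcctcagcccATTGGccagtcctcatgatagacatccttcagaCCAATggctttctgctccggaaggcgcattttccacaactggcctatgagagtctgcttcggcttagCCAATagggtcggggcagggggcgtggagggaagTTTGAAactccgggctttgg

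DNA replication genes followed the same direction with smaller differences. Of 44 tested, 43 had a positive log2 fold change with the block, 27 at an unadjusted p under 0.05, and 2 were called, with a median of 0.16 and summed pair ratios of 0.085 to 0.18, against 6.59% of all genes higher at that p. The unblocked median was 0.16 and none reached that p. Mcm2 and Mcm5 are subunits of the MCM helicase that unwinds DNA at the fork. Mcm2 was at 26.4, 36.4 and 74.5 CPM in WT and 33.7, 44.0 and 89.6 CPM in mutants and rose by 0.27 (SE 0.041, adjusted p = 0.0687). Mcm5 was at 25.8 to 65.6 CPM in WT and 31.5 to 78.9 CPM in mutants and rose by 0.25 (SE 0.038, adjusted p = 0.0687). Mcm3 of the same helicase (0.27, adjusted p = 0.114) and Rpa2, which coats single-stranded DNA (0.20, adjusted p = 0.133), were higher in 6 of 6 pairs without passing the threshold. The E2F motifs TTTCCCGC and TTTGGCGC were each in 6 of 36 promoters of this list (16.7%), against 2.3% and 1.1% of all.

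Of the dividing cell types, intermediate progenitors showed the higher list median. All 14 of their genes had a positive log2 fold change with the block (median 0.24), 10 at an unadjusted p under 0.05 (6.59% of all genes), and 1 was called. The unblocked fit gave a median of 0.23, and none reached that p. Eomes, the T-box factor that defines them, was at 47.0, 76.8 and 185 CPM in WT and 63.6, 91.3 and 198 CPM in mutants and rose by 0.30 (SE 0.052, adjusted p = 0.0912). The summed level of the 14 genes had pair ratios of 0.097 to 0.25, and S3 and S4 libraries were further apart than the genotypes, at 630 to 850 CPM and 288 to 344 CPM. Mfng, which modifies Notch receptors, Mfap4 and the somatostatin receptor Sstr2 had values of 0.26, 0.39 and 0.23 with adjusted p of 0.154 to 0.157. Radial glia genes were mixed: of 20 tested, 8 were higher and 2 lower at an unadjusted p under 0.05, none was called, and the median was 0.11. Vim, the radial glia intermediate filament, had 0.26 (adjusted p = 0.141), and Sox2 and Pax6, transcription factors of these cells, 0.23 (adjusted p = 0.181) and 0.17 (adjusted p = 0.154). Whether the share of each progenitor type differed was not tested.

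The remaining genes that rose have other known roles. Rhbdl3, a rhomboid-like membrane protein, was at 10.4, 17.98 and 58.8 CPM in WT and 13.4, 22.2 and 69.4 CPM in mutants and rose by 0.33 (SE 0.040, adjusted p = 0.0479). Tead2, the DNA-binding partner of Yap in Hippo signalling, was at 27.7, 37.6 and 93.0 CPM in WT and 31.7, 45.1 and 114 CPM in mutants and rose by 0.28 (SE 0.036, adjusted p = 0.0479). Both were lowest in S4 and highest in S3, and in 46 of the 47 genes that rose every S3 library exceeded every S4 library (18.9% of all genes). Rcor2, a corepressor that works with the demethylase Lsd1, rose by 0.22 (adjusted p = 0.0687). Ajuba, a LIM protein of Aurora A and Hippo signalling, rose by 0.36, Nrarp, a target and inhibitor of Notch, by 0.26, and the microfibril protein Mfap2 by 0.24 (each adjusted p = 0.0912). The genes that rose also held the pseudogene Gm10175 and the noncoding gene Gm42743, whose annotated span on chromosome 3 overlaps the Hist2 cluster.

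Besides Cul3, 7 genes fell with the block, and in 3 of them every S3 library was below every S4 library (20.3% of all genes). Rasgrf2, an exchange factor for Ras and Rac, was at 3.31, 20.1 and 39.9 CPM in WT and 2.35, 13.9 and 31.4 CPM in mutants, with a difference of -0.43 (SE 0.058, adjusted p = 0.0549). Its mean was 3.41 CPM in S3 and 33.7 CPM in S4, and the pair differences were -0.57 to -0.20. Egfr, the EGF receptor, was at 3.90, 23.4 and 35.2 CPM in WT and 2.32, 17.51 and 28.4 CPM in mutants, with -0.41 (SE 0.072, adjusted p = 0.0912). Cntn6, a contactin of axons and synapses, was at 1.59, 17.7 and 33.2 CPM in WT and 1.16, 13.4 and 28.3 CPM in mutants, with -0.33 (SE 0.056, adjusted p = 0.0912). For all 3 the prefixes were several-fold apart and the genotype groups overlapped.

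Pcdhga1, a clustered protocadherin of neuronal adhesion, was at 12.1, 16.8 and 21.6 CPM in WT and 6.88, 12.9 and 15.1 CPM in mutants, with -0.47 (SE 0.071, adjusted p = 0.0687). Its transcripts share constant exons with neighbouring members of the cluster, so reads may have been divided among them. The other 3, Gm44022, Gm43483 and Gm42440, are unspliced models of the annotation class TEC, which awaits experimental proof. Gm44022 was at 1.24, 2.22 and 3.21 CPM in WT and 0.477, 1.17 and 1.71 CPM in mutants, with -0.91 (SE 0.15, adjusted p = 0.0866). Gm43483 had -0.97 and Gm42440 -0.85 (both adjusted p = 0.0912).

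TEC models as a class were lower in mutants. Of 1002 tested, 307 (30.6%) were lower and 1 higher at an unadjusted p under 0.05 with the block, against 7.89% and 6.59% of all genes, and the median log2 fold change was -0.37. Without the block 79 were lower and 1 higher, with the same median. Sense-intronic models behaved alike, with 31 of 106 lower (29.2%) and none higher. TEC genes took 0.1495% to 0.260% of normalized counts in WT and 0.104% to 0.219% in mutants, and the share was lower in 5 of 6 pairs. In the hippocampus and the cerebellum, without a block, more TEC models were higher than lower (69 against 3 of 1026 where 1.31% and 0.979% of all genes were, and 78 against 2 of 1091 where 1.66% and 1.84% were). Values also moved with gene span, here for protein-coding genes with the block. The fifth with the shortest span (2742 genes, up to 8.61 kb) had 394 higher and 45 lower at an unadjusted p under 0.05. Its median was 0.046. The fifth with the longest span (2742 genes, from 81.9 kb) had 89 higher and 470 lower and a median of -0.050. The shares of all genes set beside the lists are not matched for span. With an offset for gene length, GC content and span, 54 histone and 37 mitosis genes were higher and 10 synapse genes lower at an unadjusted p under 0.05. The part of unspliced RNA was not tested.

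Synapse and neuronal cytoskeleton genes had mostly negative values, and none of either list was called. In the synapse list 36 of 40 had a negative log2 fold change with the block, 14 at an unadjusted p under 0.05 (7.89% of all genes; none higher), with a median of -0.13. In the unblocked fit the median was -0.12 for the synapse and -0.098 for the cytoskeleton list, and none of either reached that p. The NMDA receptor subunit Grin2b had -0.49 (SE 0.13, adjusted p = 0.182), the AMPA receptor subunit Gria2 -0.24 (adjusted p = 0.179) and the scaffold Dlg2 -0.25 (adjusted p = 0.178). Of 33 neuronal cytoskeleton genes 8 were lower and none higher at an unadjusted p under 0.05 (median -0.11), including the motor subunit Dync1h1 (-0.22, adjusted p = 0.166), the microtubule proteins Map1b (-0.26, adjusted p = 0.21) and Map2 (-0.14, adjusted p = 0.225), and the adaptor Ank2 (-0.31, adjusted p = 0.214).

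For the other neuronal lists, counts are at an unadjusted p under 0.05 with the block, where 6.59% of all genes were higher and 7.89% lower. Without the block none of their genes reached that p. Axon guidance genes were mixed, with 2 higher and 5 lower of 41 (median -0.043). The adhesion molecules Nrcam, L1cam and Chl1 had -0.21 (adjusted p = 0.122), -0.24 (adjusted p = 0.175) and -0.16 (adjusted p = 0.194), and the ephrin Efnb1 had 0.16 (adjusted p = 0.165). Deep-layer neuron genes gave 0 higher and 1 lower of 15 (median -0.052), the lower being Ldb2 (-0.16, adjusted p = 0.285). Upper-layer genes gave 1 higher and 1 lower of 18 (median -0.089): the small GTPase Rnd2 at 0.22 (adjusted p = 0.133) and the transcription factor Mef2c at -0.23 (adjusted p = 0.178). Inhibitory neuron genes gave 4 higher and 2 lower of 22 (median 0.10). Sst and Slc32a1, the peptide and the vesicular GABA transporter, had 0.29 (adjusted p = 0.275) and 0.22 (adjusted p = 0.289), and Erbb4 and Maf, of migrating interneurons, had -0.12 (adjusted p = 0.216) and -0.14 (adjusted p = 0.286).

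**Figure D4:**
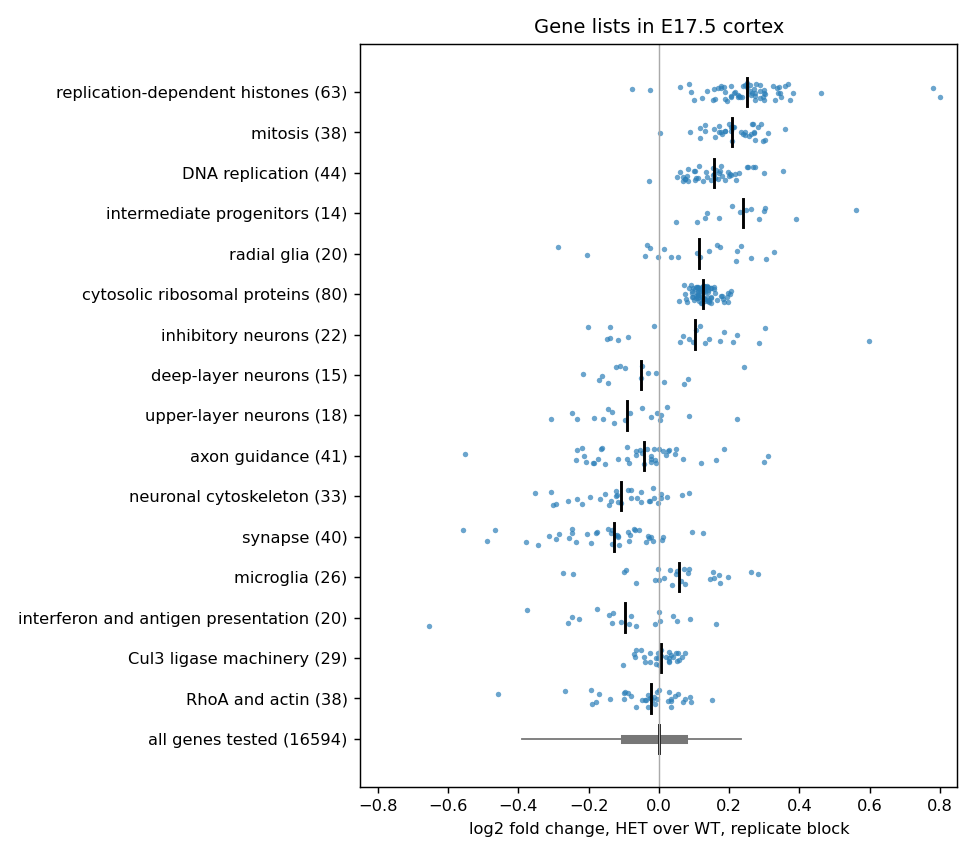
Log2 fold change of mutant over WT with the replicate block (x axis) for the tested genes of 16 lists and for all tested genes. Points are genes, numbers in brackets count them, black ticks are medians, and values beyond 0.8 are drawn at 0.8; for all genes the thick bar spans the 25th to 75th percentile and the thin line the 5th to 95th percentile. The histone, mitosis and intermediate progenitor medians lie at 0.25, 0.21 and 0.24, and the synapse median at -0.13.

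Immune genes gave no call. Of 26 microglia genes 1 was higher and none lower at an unadjusted p under 0.05 with the block (median 0.058), against 6.59% and 7.89% of all genes, and their sum was higher in mutants in 4 of 6 pairs, with pair ratios from -0.25 to 0.38. The one was C1qc, of the complement C1 complex, at 3.47, 4.06 and 4.45 CPM in WT and 3.88, 4.63 and 5.18 CPM in mutants, with 0.20 (adjusted p = 0.318). Interferon and antigen presentation genes gave 1 higher and 1 lower of 20 (median -0.096), the MHC gene H2-D1 at 0.16 (adjusted p = 0.246) and Bst2 at -0.37 (adjusted p = 0.324). None of 12 cytokine and NF-kB genes passed an unadjusted p of 0.05. Markers of border macrophages and blood leukocytes were close to absent: 12 of 14 and 17 of 18 were under 1 CPM in all 12 libraries. The mannose receptor Mrc1, expressed by border macrophages, was at 1.11, 1.69 and 1.90 CPM in WT and 0.726, 1.08 and 1.26 CPM in mutants, with -0.65 (adjusted p = 0.991 without the block, 0.219 with it).

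No gene of the Cul3 partner lists was called, and their counts stand beside 6.59% of all genes higher and 7.89% lower. None of 29 genes of the ligase machinery passed an unadjusted p of 0.05 with the block, and their median was 0.0052. Of 42 BTB adaptors 2 were higher, Klhl13 (0.26, adjusted p = 0.244) and Kbtbd4 (0.11, adjusted p = 0.289), and 1 lower, Klhl18 (-0.18, adjusted p = 0.194). The RhoA and actin list, named for a substrate of Cul3, gave 1 higher and 4 lower of 38 (median -0.023), among them the kinases Pak3 (-0.19, adjusted p = 0.194) and Rock2 (-0.096, adjusted p = 0.24). Targets of Nrf2, whose adaptor Keap1 joins it to Cul3, gave 8 higher and none lower of 27 (median 0.073), with the glutathione synthesis gene Gclc at 0.15 (adjusted p = 0.182) and thioredoxin Txn1 at 0.14 (adjusted p = 0.275). Genes beside Cul3 on chromosome 1 gave 1 lower and none higher of 9.

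Other lists held fewer low p-values, with cytosolic ribosomal proteins the exception. All 80 had a positive log2 fold change with the block, 51 at an unadjusted p under 0.05 (median 0.13), and 1 was called, against 6.59% of all genes higher at that p. Without the block 79 were positive and 1 reached that p. Their summed level was higher in mutants in 5 of 6 pairs, with ratios from -0.041 to 0.27, and mutant library 4 stood above the rest at 35812 CPM. The unfolded protein and integrated stress response list gave 6 higher and 1 lower of 20, including Shmt2 of folate metabolism (0.21, adjusted p = 0.141) and the stress gene Sesn2 (0.32, adjusted p = 0.309). The proteasome gave 4 higher of 37 and cholesterol synthesis none of 23. The p53 list gave 3 higher and 1 lower of 23, activity-regulated genes 4 higher of 17, hypoxia and glycolysis genes 3 higher and 1 lower of 20, and heat shock genes 1 higher of 14.

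No marker gene of neighbouring tissue or other cell types was called, but some list medians were as high as those of the dividing-cell lists. Erythroid genes gave 4 higher of 9 (median 0.24), all globins, with summed levels of 648 to 1123 CPM in WT and 764 to 1465 CPM in mutants. Striatal genes gave 2 higher of 19, against 6.59% of all genes, with a median of 0.29 that was -0.068 without pair 1, whose mutant library stood apart for Rxrg at 11.2 CPM. The striatal sums were 341 to 505 CPM in WT and 409 to 550 CPM in mutants. Hippocampal genes gave 4 higher and 1 lower of 14, with sums of 309 to 447 CPM in WT and 280 to 362 CPM in mutants. Meningeal genes gave 1 higher and 1 lower of 15, the lower being the collagen Col1a1 (-0.86, adjusted p = 0.131), and thalamic, astrocyte, oligodendrocyte and endothelial lists gave 1 higher of 12, 1 lower of 11, 1 higher of 12 and 3 higher of 20. Of the choroid plexus genes 13 of 18 were under 1 CPM in all libraries. Their part in the called genes was not tested.

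Without the block, the genes after Cul3 with the smallest p had adjusted p of 0.991 and were mostly at a low level. The pseudogene Gm9531 was at 3.81, 4.13 and 4.83 CPM in WT and 5.10, 5.52 and 5.83 CPM in mutants and was 1 of 6 genes (0.0362%) for which every mutant exceeded every WT library. The TEC model Gm42443, at 0.644 to 1.09 CPM in WT and 0.316 to 0.617 CPM in mutants, was with Cul3 among the 4 genes (0.0241%) with every mutant below every WT library. Gm10221, at 2.46 to 4.54 CPM in WT and 4.52 to 5.78 CPM in mutants, overlapped narrowly and was higher in 5 of 6 pairs.

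The hippocampus (HIP) and cerebellum (CB) of E17.5 and the cortex of postnatal day 7 (P7) were set beside the cortex to see where the same genes lie there, each fitted without a block. HIP and CB come from the same embryos as CX, so they are not independent of it. Each of the 3 tissues called 1 gene, Cul3 (0.00586%, 0.00568% and 0.00566% of genes tested). The 47 genes that rose in CX had a median log2 fold change of 0.26 in HIP, where all 47 were positive, of -0.10 in CB, where 5 were positive, and of 0.13 in P7 CX, where 45 were positive, against 50.8%, 51.1% and 50% of all genes. None of the 47 in HIP and 3 in P7 CX were higher at an unadjusted p under 0.05, and in CB 2 were lower, against 1.31% and 1.52% of genes higher in HIP and P7 CX and 1.84% lower in CB. With the replicate block, which was not shown to pair the libraries there, 38 of the 47 were higher in HIP (4.5% of all genes) and 16 lower in CB (4.72%). The histones had a median of -0.22 in CB, with 24 of 64 lower at an unadjusted p under 0.05, and of 0.17 in P7 CX, with 7 of 63 higher.

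The difference in genotype effect was tested with each mouse as a block between regions, and with no block between ages, which come from different mice. In the edgeR quasi-likelihood fits no gene was called for CX minus HIP, CX minus CB or CX minus P7 CX. Blocking also on the replicate number within each region called 644 for CX minus CB, where the numbers were not shown to pair. The same-number correlations of that difference were -0.042 in pair 1, under the 0.1 of the rule, and 0.17 to 0.66 in pairs 2 to 6. Without the replicate block 725 (4.09%), 670 (3.68%) and 235 (1.28%) had an unadjusted p under 0.05. For CX minus CB without that block all 47 genes that rose had a positive difference with a median of 0.40, but none had an unadjusted p under 0.05. None of the 47 had such a p in CX itself without the block, so this does not show that the regions are alike. Cul3 itself differed from WT by -0.82 in HIP, -0.79 in CB and -0.86 in P7 CX, and its CX minus CB difference was 0.014 (SE 0.058, adjusted p = 0.974).

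**Figure D5:**
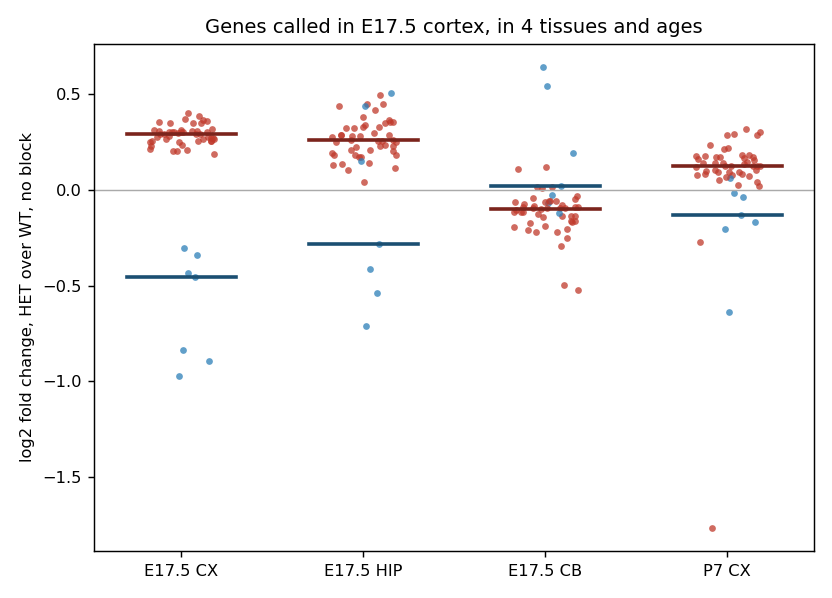
Log2 fold change of mutant over WT without a block (y axis) of the 54 genes called in E17.5 cortex besides Cul3, in E17.5 cortex, hippocampus and cerebellum and P7 cortex (x axis). Red points are the 47 genes that rose and blue points the 7 that fell, and bars are medians; the red median is 0.29 in cortex, 0.26 in hippocampus, -0.10 in cerebellum and 0.13 in P7 cortex, and the cortex values describe the choice of genes. The low red point in P7 cortex is Eomes.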

How the data were processed

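RNA was sequenced from 12 E17.5 cortices (6 WT, 6 Cul3+/-) after ribosomal depletion. Per the methods of the study, the authors trimmed reads (cutadapt 1.14), aligned them to GRCm38.p5 (STAR 2.5.3a) and deposited RSEM 1.3 expected counts per gene, which divide reads shared by several genes. Here the expected counts were rounded, filtered (at least 10 counts in enough libraries, 15 in total), TMM-normalized and tested with the edgeR 4.0.16 quasi-likelihood test in R 4.3.3, without a block (the main test) and blocked by replicate number. Gene classes, coordinates and transcripts came from GENCODE M21, a later release than the authors' annotation. Adjusted p is Benjamini-Hochberg, and genes under 0.1 were called. The study's sex covariate is not in the labels and was replaced by Xist as an alternative. The numbers were taken to pair the embryos because every same-number correlation exceeded 0.1, a rule that cannot tell the number from the prefix. Alternatives used DESeq2 1.42.0 and limma 3.58.1. Totals were 25782800 to 34893100 counts. The members, lists and tests were chosen with earlier results of these data known. Named genes are the 30 with the smallest p in the blocked fit, the 10 after Cul3 without it, and up to 4 of each list with an unadjusted p under 0.05 in either fit. Other called genes were named after their values were seen, and some items are not reported here. The fits were tested on simulated data. Of genes changed by 0.25 on the log2 scale, near the histone median with the block, 1.89% were recovered without a block. In paired counts 33.3% were recovered with the block and 4.17% without it. The region difference recovered 2.08% and the period difference 5.77%. The simulated pair differences were independent between genes, unlike the prefix differences here, and smaller than those of the dividing-cell genes. The shares for paired counts therefore do not describe the recovery of those genes.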

Additional observations from a re-analysis of the deposited data

Results flagged for a closer look

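Of 262 groups of 6 libraries checked over named genes and lists, 19 had 1 library far from the other 5, where chance gives about 1 in 20. Mutant library 4 accounted for many of them. Its level was 423 CPM for Rps19 (281 to 311 in the other mutants), 808 CPM for Dync1h1 (1109 to 1252), 1652 CPM for Map1b (2695 to 3081), 67.2 CPM for Shmt2 (36.2 to 46.3) and 6.78 CPM for Sesn2 (3.45 to 4.56). Its mean log2 CPM was 8.03 over cytosolic ribosomal proteins, 6.03 over axon guidance genes, 4.04 over p53 targets, 4.28 over the unfolded protein and integrated stress response and 4.88 over the proteasome.

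Mutant library 1 was at 11.2 CPM for Rxrg (highest of the others: 1.138) and 3.37 CPM for Zfp503 (0.348 to 1.23), and its mean over striatal genes was 2.90 log2 CPM. WT library 3 had a mean of 5.99 log2 CPM over deep-layer genes, 3.56 over the unfolded protein and integrated stress response and 7.84 over mitochondrially encoded genes. WT library 4 was at 1482 CPM for Map2 (1880 to 1972), WT library 2 at 1.11 CPM for Mrc1 (1.62 to 1.90) and WT library 5 at 3.93 CPM for Col1a1 (at most 2.04 in the others). The cause was not tested.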

How the results depend on the processing

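Without the block the count of calls was 1 and became 55 with the replicate block, in which same-numbered embryos are paired, and 2 with 5 RUVs factors, and it was 1 to 2 when a library was left out. With the replicate block the count of 55 became 1 without it, 1 with the prefix as block, 287 with DESeq2, 428 with the likelihood ratio test, 210 with no filter on low counts and 166 with Xist as covariate, and 1 to 434 when a pair was left out. The cause was not tested. The region differences called 0 genes, and for the hippocampus 3 with the likelihood ratio test and 2 without the filter, and for the cerebellum 1 with DESeq2, 1 with the likelihood ratio test and 644 with the replicate block, although the numbers were not shown to pair those differences. Erbb4 turned to 0.10 with the replicate block and the length, GC and span offset (adjusted p = 0.445). Cul3 kept its direction and call in all 40 alternatives tried, between -0.81 and -0.71. Over the alternatives of the unblocked fit, the list median ran from -0.0089 to 0.51 for histones and from 0.017 to 0.41 for mitosis. For DNA replication it ran from 0.021 to 0.29, and for intermediate progenitors from 0.0011 to 0.48. Over those of the blocked fit these medians ran, in the same order, from 0.22 to 0.27, 0.21 to 0.23, 0.15 to 0.18 and 0.22 to 0.26. Over all alternatives of the gene values with the block, 270 lost their call, 83 gained one and 958 kept their side.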

Other observations

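In the hippocampus of the same embryos, the summed level of the mitosis genes was higher in the mutant of the same number in 6 of 6 pairs, with log2 ratios of 0.16 to 0.29, and that of the DNA replication genes in 6 of 6, with 0.099 to 0.21. The histone sum was higher in 5 of 6, with -0.20 to 0.65, and the ribosomal protein sum in 4 of 6, with -0.070 to 0.38. In the cerebellum the mitosis, DNA replication and histone sums were each higher in 2 of 6 and the ribosomal protein sum in 3 of 6. The numbers were not shown to pair the libraries in these tissues.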
